A study of Mus musculus with 47 samples.

Results

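Steady-state mRNA levels were compared between P19 cells after 6 days of neuronal differentiation (D6) and undifferentiated P19 cells (D0). P19 is a mouse embryonal carcinoma line that resembles the early embryonic epiblast and can form neurons when given retinoic acid. The comparison used the libraries of the anabolic SLAM-seq assay labelled time 0, which were collected before any 4-thiouridine (4sU) was added. By that rule 6 of the 47 libraries of the series were taken, 3 at D6 and 3 at D0, and a level was computed for each of 18854 genes. The rest of the series measured RNA synthesis and decay in the same cells. Both groups were wild type and their RNA was treated with iodoacetamide, as in the labelled libraries. D0 cells were kept in Dulbecco's modified Eagle's medium that contained 10% fetal bovine serum and antibiotics. D6 cells were grown on poly-L-lysine in NDiff 227 medium with 500 nM retinoic acid, replaced every day. Retinoic acid, the medium, the coating and the time in culture therefore changed together and cannot be told apart here, and every library came from the same cell line.

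Retinoic acid is a small lipid made from vitamin A. It binds nuclear receptors that sit on DNA next to their target genes, and in the embryo it posteriorizes the neural tube by switching on Hox genes. In pluripotent cells it also shuts down the factors that keep the cells pluripotent. Cells that commit to a neuronal fate pass through a progenitor stage, activate proneural transcription factors, leave the cell cycle and then build axons, dendrites and synapses.

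Each library was made with a kit that reads the 3′ end of polyadenylated RNA, so a level is the number of reads over the 3′ untranslated region (UTR) of the gene's most read transcript. Levels are given as CPM, the gene's share of the TMM-scaled reads of a library expressed per 1000000 reads, first for D0 replicates 55, 56 and 57 and then for D6 replicates 37, 38 and 39. Reads in genes came to 5029702 to 6579012 per D0 library and 3264851 to 6322318 per D6 library, and 9793 to 10836 genes had at least 1 read in a library. The share of T-to-C conversions was 0.136 to 0.207% in all 6 libraries. Libraries of one state varied strongly, with a biological coefficient of variation of 0.839. Pearson's r of log2 CPM over the tested genes was 0.70 to 0.80 within a state and 0.45 to 0.50 between states. D0 replicate 56 stood apart from the other D0 libraries, with r of 0.722 and 0.702 against 0.799 between those others, and the main counts are therefore given without it as well.

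The test was edgeR's quasi-likelihood test, and a gene was called where the p adjusted over all genes was at most 0.05. Of 10238 genes tested, 779 were higher at D6 (7.61%) and 528 were lower (5.16%), together 12.8% of those tested. At least 2-fold changes were seen in 766 of the higher genes (7.48% of those tested) and 505 of the lower genes (4.93%), the median absolute log2 fold change of the called genes was 2.62, and 370 genes passed 5 on the log2 scale. The smallest called change was 0.74 on that scale, and with so large a spread between libraries a gene that was not called is not shown to be alike in both states. A gene near 0 in 1 state could enter the test only through its level in the other, and then had to differ. Among the tested genes 266 stood under 2 CPM in every D0 library and 227 in every D6 library, the first group including 10 of 35 proneural, 9 of 36 release and 9 of 30 postsynaptic and channel genes, so that counts and medians of those lists only describe them. Such genes also stood in other lists, in either state, and the same limit holds there. Over all tested genes the median log2 fold change was -0.02. The genes called higher took up 4.90 to 5.37% of the reads at D0 and 24.4 to 25.7% at D6, while those called lower went from 17.7 to 19.1% to 5.47 to 5.68%. In bulk RNA of this kind, fewer cells of a type and less RNA per cell cannot be told apart.

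These counts depended on which library was left out. Without D0 replicate 56 the test called 850 genes higher and 528 lower. Without D6 replicate 37, 38 or 39 it called 412, 468 or 459 genes higher, and 291, 393 or 316 genes lower. Without D0 replicate 55 or 57 it called 606 or 615 higher and 342 or 388 lower. DESeq2 on all 6 libraries called 1103 higher and 883 lower.

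**Figure D1:**
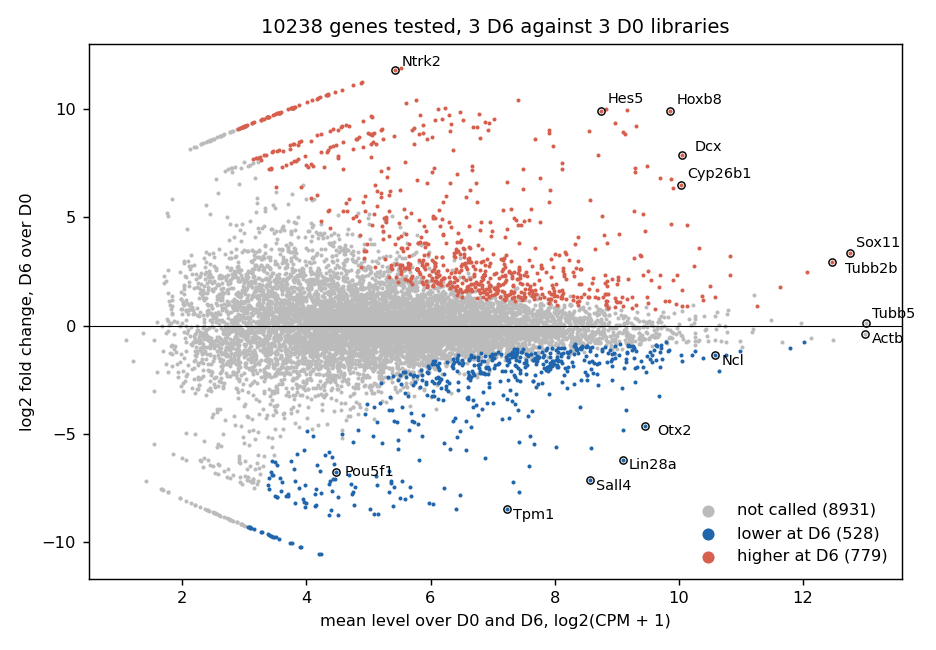
Log2 fold change of D6 over D0 (vertical axis) against the mean level over both states as log2(CPM + 1) (horizontal axis), 1 point for each of the 10238 genes tested, with the 779 higher genes in orange, the 528 lower genes in blue and 15 named genes circled. Called genes lie far from 0, Actb and Tubb5 at the right edge lie near it, and the straight rows of points at the upper and lower left are genes with no or few reads in one state, whose fitted fold change is not a measured size.

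Many transcription factors and RNA-binding proteins that define the embryonal carcinoma state fell. Of 36 genes listed for pluripotency, 22 had enough reads to be tested, with a median log2 fold change of -3.13. Of these, 12 were lower at D6 (54.5%, against 5.16% of all tested genes) and none was higher. Pou5f1 encodes Oct4, the homeodomain factor at the centre of the pluripotency network, and its counted 3′ UTR lies at chr17:35510552-35510777 (mm10). It stood at 21.8, 46.1 and 58.2 CPM at D0 and 0.73, 0 and 0.32 CPM at D6. Every D0 library was far above every D6 library (log2 fold change -6.77 ± 1.36 (SE), adjusted p = 0.00832). Sall4, a zinc finger partner of Oct4, stood at 667, 997 and 587 CPM at D0 and 5.6, 3.89 and 6.39 CPM at D6, without overlap (log2 fold change -7.12 ± 0.39 (SE), adjusted p = 1.6e-06). Lin28a blocks the maturation of let-7 microRNAs in stem cells and stood at 929, 1503 and 794 CPM at D0 and 13.4, 6.16 and 23.8 CPM at D6, again with a wide gap between the states (log2 fold change -6.19 ± 0.52 (SE), adjusted p = 3.17e-05). Utf1, a chromatin factor restricted to pluripotent and germ cells, and Tdgf1, the Nodal co-receptor Cripto, fell by 8.01 and 7.70 on the log2 scale (adjusted p = 0.000457 and adjusted p = 1.39e-05). The anterior epiblast factor Otx2 was also lower (-4.63 ± 0.44 (SE) on the log2 scale).

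Not every stem cell factor was called. Sox2, which pluripotent cells share with neural progenitors, stood at 769.8, 1592 and 744 CPM at D0 and 806, 1059 and 697 CPM at D6. Its D0 and D6 levels overlapped (log2 fold change -0.28, adjusted p = 0.687). Nanog had few reads in any library, at 10.3, 0.42 and 8.72 CPM at D0 and 0, 0 and 0 CPM at D6, too few for the test. The DNA methyltransferase of the early embryo, Dnmt3b, fell from 368, 331 and 432 CPM to 13.9, 2.92 and 16.1 CPM (log2 fold change -5.07 ± 0.56 (SE), adjusted p = 0.000214). Dnmt1, which copies methylation after replication, was not called (log2 fold change -0.40, adjusted p = 0.503).

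Some signals that hold cells in the epiblast state and prepare mesendoderm were also lower. Of 28 such ligands, receptors and targets, 23 were tested, 7 were lower and 2 were higher, with a median log2 fold change of -1.49. The 7 and 2 were 30.4% and 8.70% of those tested, against 5.16% and 7.61% of all tested genes. The share called higher was thus near that of all tested genes. Nodal, the ligand that maintains the epiblast, stood at 18.5, 66.2 and 62.6 CPM at D0 and 0.24, 0.65 and 0.32 CPM at D6, with no overlap (log2 fold change -6.90 ± 1.17 (SE), adjusted p = 0.00346), and was not called by limma-voom (adjusted p = 0.0731). Its feedback inhibitor Lefty1 stood at 81.6, 81.1 and 35.8 CPM at D0 and 0, 0 and 0.32 CPM at D6, where the D6 libraries together held 2 reads, a D0 level 438-fold (95% counting interval 121 to 3618) higher. Etv4, a transcription factor downstream of fibroblast growth factor, stood at 42.9, 60.5 and 53.6 CPM at D0 and 0.24, 0 and 0.16 CPM at D6, also on 2 reads at D6 (345-fold (95% counting interval 95.1 to 2849) higher at D0, adjusted p = 0.00121). Eomes, which opens the mesendoderm program, was lower as well (adjusted p = 0.00783), although not without D0 replicate 55 (adjusted p = 0.0718). The 2 called higher were the ligand gene Bmp7 and the receptor gene Acvr2b, and neither call was stable. Bmp7 lost it without D6 replicate 37 or 39 and in the libraries of the next time point (adjusted p = 0.0502, 0.0986 and 0.0566). Acvr2b lost it without D0 replicate 55 or 57 or D6 replicate 37 or 38 (adjusted p = 0.0637, 0.0754, 0.079 and 0.0505). Of the 24 mesendoderm genes listed, only 4 had reads enough for the test and Eomes was the one called.

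Genes that transport, sense and destroy retinoic acid were among the clearest gains at D6. Of 31 genes in this list, 20 were tested, 14 were higher and none was lower, with a median log2 fold change of 2.60. The 14 were 70% of those tested, against 7.61% of all tested genes. Leaving out 1 library gave 11 (D6 replicate 37) to 15 (D0 replicate 56) higher, and 1 lower without D6 replicate 38. Rarb, a retinoic acid receptor gene known to be switched on by its own ligand, stood at 6.98, 0.64 and 4.29 CPM at D0 and 110.5, 131 and 136 CPM at D6. The D6 libraries lay close together and well above D0 (log2 fold change 4.96 ± 0.78 (SE), adjusted p = 0.00204). Crabp1, a carrier protein that binds retinoic acid in the cytoplasm, stood at 3.7, 1.06 and 5.66 CPM at D0 and 495, 706 and 447 CPM at D6 (log2 fold change 7.26 ± 0.56 (SE), adjusted p = 2.03e-05). Of the enzymes that clear retinoic acid by oxidation, Cyp26b1 stood at 27.5, 14.01 and 27.9 CPM at D0 and 1864, 2427 and 1953 CPM at D6 (log2 fold change 6.49 ± 0.36 (SE), adjusted p = 1.6e-06). Cyp26a1 stood at 0.14, 0.21 and 4.29 CPM at D0 and 235, 122 and 107 CPM at D6 (log2 fold change 6.59 ± 1.07 (SE), adjusted p = 0.00259), and Dhrs3, which returns retinal to retinol, at 11.7, 14.7 and 1.38 CPM at D0 and 312, 517 and 314 CPM at D6 (log2 fold change 5.37 ± 0.72 (SE), adjusted p = 0.000758). None of these 5 overlapped between states, and each was called in every fit that left out 1 library.

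The receptors themselves differed. Rara was higher at D6 (log2 fold change 1.45 ± 0.35 (SE), adjusted p = 0.0201), but was not called without D0 replicate 55 or 57 or D6 replicate 37 or 39 (adjusted p = 0.0644, 0.0877, 0.0654 and 0.0957). Rarg stood at 26.2, 71.6 and 23.6 CPM at D0 and 0, 14.3 and 0.32 CPM at D6 and was not called (log2 fold change -3.07, adjusted p = 0.278).

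The promoters of this list were searched for a direct repeat of the kind bound by retinoic acid receptors, spelled GGTCANNNNNAGGTCA, GTTCANNNNNAGTTCA, GTTCANNNNNAGGTCA or GGTCANNNNNAGTTCA on either strand. The window ran from 250 bases before to 50 bases after the RefSeq start (GRCm38.p6), and 15036 of the 18854 genes had one. The repeat occurred in 8 promoters of all genes (0.0532%) and in 2 of 20 in the list, those of Rarb and Cyp26a1. Both are shown because they are the 2 genes of the list that hold the repeat and both were higher at D6. Capitals mark the repeat, which begins 52 bases before the start of Rarb and 32 bases before that of Cyp26a1, where it reads on the opposite strand, at chr14:16575506-16575535 (minus strand) and chr19:37697769-37697798 (plus strand). A match describes letters only.
Rarb: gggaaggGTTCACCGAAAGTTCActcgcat
Cyp26a1: ttaaagaTGAACTTTGGGTGAACtaatttg

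Many Hox genes went from near 0 to high levels at D6. These homeodomain factors sit in 4 clusters and give neural tissue its position along the body, with low paralog numbers in the hindbrain and higher ones in the spinal cord. Of 36 Hox genes with a counted UTR, 22 were tested. All 22 lay above D0 in every D6 library and 20 were called higher, with a median log2 fold change of 8.98, or 8.96 with genes at 0 set to their lower bound. Nothing is read from that count or from the 18.8% of all tested genes that lay so, because 15 of the 22 were under 2 CPM in every D0 library and entered the test through D6. Of the 14 genes not tested, 8 had no read, 2 were read only at D6, and Hoxd1, Hoxd10 and Hoxd11 were read only at D0, with Hoxd11 at 16.1 CPM in D0 replicate 57. Hoxd13 was read at 4.41 and 13.9 CPM in D0 replicates 55 and 57. Summed over the list, the level was 23.8 to 62.3 CPM in D0 libraries and 11169 to 12781 CPM in D6 libraries. Hoxb8 stood at 1.99, 2.97 and 0.92 CPM at D0 and 1559.8, 2224 and 1762 CPM at D6 (log2 fold change 9.90 ± 0.46 (SE), adjusted p = 4.41e-07). Hoxb4, from the middle of the same cluster, stood at 2.42, 2.12 and 2.6 CPM at D0 and 1118, 1065 and 1159.7 CPM at D6 (log2 fold change 8.85 ± 0.32 (SE), adjusted p = 1.96e-07). Hoxc4 stood at 0.71, 1.27 and 1.38 CPM at D0 and 1098, 1416 and 918 CPM at D6 and Hoxa5 at 1.85, 1.27 and 1.38 CPM at D0 and 939, 892 and 1170.4 CPM at D6 (log2 fold changes 9.98 and 9.34). D0 libraries held almost no reads of these genes.

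The gain ran through paralog groups 2 to 9 and was not seen in groups 10 to 13. In the B cluster, Hoxb2 to Hoxb9 were all called. Hoxb6, the least even of them at D6, stood at 0.14, 0.64 and 0 CPM at D0 and 262, 71.996 and 213 CPM at D6 (log2 fold change 9.50 ± 0.94 (SE), adjusted p = 9.89e-05). Hoxb1 was read only in D6 replicate 39, at 9.43 CPM. Hoxa7 had no read at D0 and 55.97, 24.97 and 33.3 CPM at D6 (at least 232-fold higher, adjusted p = 0.00454), but was not called in the libraries of the next time point. Hoxc9 and Hoxd8 lay above D0 in every D6 library and were not called (adjusted p = 0.166 and adjusted p = 0.0591). Of the 10 genes of those last groups, only Hoxd13 had a read at D6, at 1.12 CPM in 1 library. Partners that help Hox proteins bind DNA were higher as well, with log2 fold changes of 2.96 ± 0.44 (SE) for Meis1 and 4.19 ± 0.29 (SE) for Meis2 (adjusted p = 0.00151 and adjusted p = 8.31e-06).

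**Figure D2:**
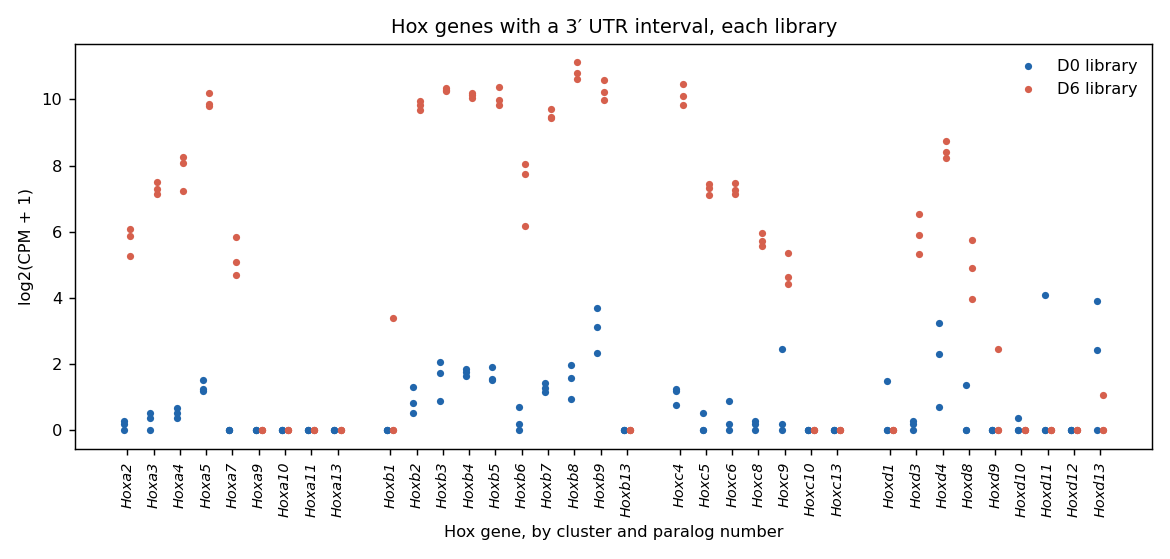
Level of 35 Hox genes as log2(CPM + 1) (vertical axis), ordered by cluster and paralog number (horizontal axis), 1 point per library with D0 in blue and D6 in orange. D6 points lie above all D0 points in the 21 tested genes plotted, which belong to paralog groups 2 to 9, and lie at or near 0 in groups 10 to 13.

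Other genes that pattern the neural axis moved in both directions. Of 39, 24 were tested, 7 were higher and 5 were lower (median log2 fold change 1.23). Of the 24, 5 stood under 2 CPM in every D0 library and 4 in every D6 library, so these values only describe the list. Pax2, a factor of the midbrain-hindbrain boundary and of spinal interneurons, stood at 0.14, 1.06 and 0 CPM at D0 and 243, 319.8 and 165 CPM at D6 (log2 fold change 9.36 ± 0.85 (SE), adjusted p = 5.59e-05). Gbx2, which marks the hindbrain side of that boundary, had no read at D0 and 36.02, 26.3 and 33.9 CPM at D6 (at least 195-fold higher, adjusted p = 0.00671). Nr2f1, a nuclear receptor induced by retinoic acid, stood at 3.7, 28.9 and 17.6 CPM at D0 and 1873, 1893 and 1778 CPM at D6 (log2 fold change 6.80 ± 0.64 (SE), adjusted p = 7.44e-05). Of the genes called lower, the forebrain factor Six3 stood at 342, 481 and 286 CPM at D0 and 32.1, 12.97 and 25.7 CPM at D6 (log2 fold change -3.96 ± 0.42 (SE), adjusted p = 0.00017) and Lhx2, a factor of the forebrain and eye, at 419, 267 and 393 CPM at D0 and 7.06, 40.5 and 13.1 CPM at D6 (log2 fold change -4.17 ± 0.60 (SE), adjusted p = 0.0012), in both cases with no overlap. Nkx2-9, a factor of the ventral neural tube, stood at 64.2, 14.2 and 20.5 CPM at D0 and 0.24, 0 and 0 CPM at D6, on 1 read at D6 (480.0-fold (95% counting interval 85.9 to 18989) higher at D0, adjusted p = 0.0105), and was not called without D0 replicate 55 (adjusted p = 0.118). Leaving out D6 replicate 38 reduced the called-higher genes to 4, and leaving out any 1 library reduced the called-lower genes to 2 (without D0 replicate 55) or 3 (without any of the others). Otx1 and Emx2, the remaining genes called lower, lost their call without any 1 library (adjusted p up to 0.154 and 0.153). Dlx1, a forebrain factor listed with the neuron classes, had no read at D0 and 6.33, 41.5 and 12.2 CPM at D6 (at least 122-fold higher, adjusted p = 0.0284), and was not called when any library but D0 replicate 56 was left out (adjusted p up to 0.142).

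Markers of neural progenitors were mixed. Of 29 genes, 25 were tested and 8 were higher (32%, against 7.61% of all tested genes), with a median log2 fold change of 0.48. Hes5, the Notch target that keeps progenitors from differentiating, stood at 0.85, 0.64 and 1.07 CPM at D0 and 929.6, 952 and 685 CPM at D6, with D0 near 0 (log2 fold change 9.90 ± 0.39 (SE), adjusted p = 1.96e-07). Sox9 stood at 83.2, 32.3 and 76.1 CPM at D0 and 1530.2, 1403 and 1077 CPM at D6 (log2 fold change 4.39 ± 0.39 (SE), adjusted p = 4.75e-05) and Fabp7, the fatty acid binding protein of radial glia, at 4.56, 0.21 and 2.45 CPM at D0 and 207, 79.8 and 295 CPM at D6 (log2 fold change 6.28 ± 0.87 (SE), adjusted p = 0.000976). Ednrb, the endothelin receptor B, had 1 read at D0 and 78.8, 122 and 120.1 CPM at D6 (1969-fold (95% counting interval 353 to 77843) higher). Several genes often used to mark progenitors were not called. Nes, which encodes nestin, stood at 42.1, 76.2 and 29.7 CPM at D0 and 42.1, 115 and 52.1 CPM at D6 (adjusted p = 0.696), and Pax6 at 29.5, 7.43 and 39.2 CPM at D0 and 24.1, 27.2 and 19.02 CPM at D6 (adjusted p = 0.958). Both overlapped between states, and so did Sox3 (adjusted p = 0.258). Sox1 and Vim lay higher in every D6 library and were not called (adjusted p = 0.0576 and adjusted p = 0.081), although DESeq2 (adjusted p = 0.0262 and 0.0131) and the fit to the libraries of the next time point (adjusted p = 0.00335 and 0.0387) called both, and limma-voom called Vim. The count of 8 fell to 4 without D0 replicate 55 or D6 replicate 37 and to 5 without D6 replicate 38.

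Most proneural and early neuronal transcription factors that could be tested were higher at D6. Of 44 genes, 35 were tested and 25 were higher, none lower, with a median log2 fold change of 4.10, and the summed level went from 2173 to 2891 CPM at D0 to 17805 to 23528 CPM at D6. The count of 25 was 21 without D6 replicate 37 or 38, 19 without D6 replicate 39 and 27 without D0 replicate 56. Of the basic helix-loop-helix factors that start neurogenesis, Neurog1 stood at 0.14, 0.21 and 0.31 CPM at D0 and 99.5, 69.1 and 178 CPM at D6 (log2 fold change 8.89 ± 0.81 (SE), adjusted p = 5.73e-05). Neurog2 stood at 13.1, 0 and 16.1 CPM at D0 and 99.3, 57.4 and 63.6 CPM at D6 and was not called (adjusted p = 0.148). Nhlh1, which acts as newborn neurons leave the cycle, stood at 0, 0.64 and 0.46 CPM at D0 and 231, 247 and 161 CPM at D6 (log2 fold change 9.20 ± 0.75 (SE), adjusted p = 2.71e-05). Ebf3, a factor of migrating young neurons, stood at 0.14, 0.42 and 0.15 CPM at D0 and 256, 195 and 199 CPM at D6 (log2 fold change 9.78 ± 0.58 (SE), adjusted p = 2.64e-06). Sox11, which drives neuronal gene expression after the proneural factors, was at 964, 1786 and 962 CPM at D0 and 12047, 15456 and 10319 CPM at D6 and had the highest mean CPM of any gene at D6 (log2 fold change 3.35 ± 0.30 (SE), adjusted p = 4.94e-05). The related Sox4 also rose (2.36 ± 0.21 (SE) on the log2 scale, adjusted p = 4.29e-05). Pou3f2 and Myt1l, both known to push fibroblasts toward neurons when overexpressed, rose by 8.92 and 7.12 on the log2 scale (adjusted p = 2.74e-06 and adjusted p = 0.00127). The letters CAGCTG or CAGATG, which helix-loop-helix factors bind, occurred in 15 of 33 promoters of the list (45.5%) against 30.7% of all promoters, and in 9 of the 18 of called-higher genes.

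Factors of particular neuron classes were fewer and less certain. Of 40 genes, 19 were tested, 10 were higher and 1 was lower (median log2 fold change 2.73). Of the 19, 5 stood under 2 CPM in every D0 library and 1 in every D6 library, so these values only describe the list. The gene called lower, Gata3, was not called without D0 replicate 57 or in the libraries of the next time point (adjusted p up to 0.756). Lhx1 and Uncx, used by spinal and hindbrain interneurons, stood at 1006, 1619 and 1093 CPM and 347, 177 and 362 CPM at D6 against 19.1, 1.49 and 5.97 CPM and 0.28, 3.19 and 5.36 CPM at D0, with no overlap (log2 fold change 7.10 ± 0.76 (SE), adjusted p = 0.000181, and log2 fold change 6.65 ± 0.80 (SE), adjusted p = 0.000426). Prdm8 stood at 1, 1.49 and 0.61 CPM at D0 and 399, 459 and 370.4 CPM at D6 (log2 fold change 8.64 ± 0.45 (SE), adjusted p = 1.13e-06). The count of 10 fell to 5 or 6 when any library but D0 replicate 56 was left out, and was 9 without that one.

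Most structural genes of the axon and dendrite were higher at D6. Of 46 genes of the neuronal cytoskeleton and membrane, 45 were tested, all 45 had a log2 fold change above 0, and 32 were called higher, with a median of 2.76. The 32 were 71.1% of those tested, against 7.61% of all tested genes. Leaving out 1 library gave 27 (D6 replicate 37 or 38) to 33 (D0 replicate 56) called. In 39 of the 45 every D6 library lay above every D0 library, against 18.8% of all tested genes. The summed level was 7551 to 7842 CPM at D0 and 44972 to 49488 CPM at D6. Tubb3, the neuron-specific β-tubulin, stood at 149, 104 and 135 CPM at D0 and 1165, 1256 and 1189.6 CPM at D6 (log2 fold change 3.22 ± 0.25 (SE), adjusted p = 2.21e-05), counted over chr8:123421683-123422010 (mm10). Map2, which bundles dendritic microtubules, stood at 24.8, 21.2 and 44.2 CPM at D0 and 1122, 1237 and 1254 CPM at D6 (log2 fold change 5.32 ± 0.35 (SE), adjusted p = 5.98e-06). Dcx, the doublecortin of migrating neurons, stood at 5.27, 18.3 and 3.52 CPM at D0 and 2024, 2077 and 2254 CPM at D6 (log2 fold change 7.90 ± 0.62 (SE), adjusted p = 2.1e-05). Mapt, which encodes tau of the axon, stood at 7.12, 16.1 and 3.06 CPM at D0 and 1356, 1633 and 1300.2 CPM at D6 (log2 fold change 7.37 ± 0.57 (SE), adjusted p = 2.1e-05). Rtn1, a reticulon of the neuronal endoplasmic reticulum, was at 8.26, 26.5 and 9.18 CPM at D0 and 1676, 1816 and 1429 CPM at D6. Stmn2 and Gap43, which act in the growth cone, were already well read at D0, at 344, 315 and 317 CPM and 474, 708 and 334 CPM, and rose to 1764, 1412 and 1844 CPM and 1527, 1866 and 1417 CPM (2.36 ± 0.23 (SE) and 1.67 ± 0.29 (SE) on the log2 scale).

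RNA-binding proteins and splicing regulators of neurons followed. Of 25, 21 were tested, 13 were higher (61.9%, against 7.61% of all tested genes) and none was lower (median 2.15). The count of 13 was 10 without D6 replicate 37 or 39 and 14 without D0 replicate 56. Elavl3 and Elavl4, the Hu proteins that stabilise neuronal mRNAs, stood at 2638, 1898 and 1939 CPM and 2133, 1894 and 1626 CPM at D6 against 109, 71.6 and 76.5 CPM and 32.2, 17.6 and 19.1 CPM at D0 (log2 fold change 4.65 ± 0.29 (SE), adjusted p = 3.39e-06, and log2 fold change 6.35 ± 0.34 (SE), adjusted p = 1.45e-06). Srrm4, which switches on neuronal microexons, had 1 read at D0 and 51.3, 36.3 and 47.8 CPM at D6 (845-fold (95% counting interval 151 to 33422) higher). Rbfox3, whose product is the NeuN antigen of mature neurons, had 3 reads at D0 and 31.9, 115 and 44.1 CPM at D6 (345-fold (95% counting interval 117 to 1674) higher, adjusted p = 0.000677).

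Genes of transmitter release rose in part. Of 46, 36 were tested, 15 were higher and none was lower, with a median of 2.58 and a summed level of 565 to 614 CPM at D0 and 3319 to 3454 CPM at D6. DESeq2 called 23 of them higher, and edgeR called 10 without D6 replicate 37 or 39 and 12 without D6 replicate 38. Syt4, a synaptotagmin of dense-core vesicles, stood at 0.28, 0.42 and 0.31 CPM at D0 and 179, 238 and 194 CPM at D6 (log2 fold change 9.16 ± 0.54 (SE), adjusted p = 2.59e-06). Rab3c, a small GTPase of the synaptic vesicle, stood at 0.71, 0 and 0.15 CPM at D0 and 243, 288 and 237 CPM at D6 (log2 fold change 9.55 ± 0.70 (SE), adjusted p = 1.39e-05). Syt1, the calcium sensor of fast release, stood at 21.8, 21.2 and 16.4 CPM at D0 and 144, 175 and 208 CPM at D6 (log2 fold change 3.15 ± 0.40 (SE), adjusted p = 0.000572). Classical markers of the mature terminal did not pass. Snap25, a fusion protein of the terminal, stood at 4.84, 0 and 0 CPM at D0 and 76.2, 51.2 and 54.04 CPM at D6, higher in every D6 library (adjusted p = 0.053), and DESeq2 called it (adjusted p = 0.000985). Syp was at 11.4, 3.89 and 9.59 CPM at D6 with 3 reads at D0 (adjusted p = 0.151), and Syn1 overlapped between states (adjusted p = 0.562).

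Receptors, channels and adhesion molecules of the postsynaptic side and the membrane were similar. Of 59, 30 were tested and 16 were higher, none lower, with a median log2 fold change of 3.74. The count of 16 ranged from 12 without D6 replicate 38 to 18 without D0 replicate 56. Nrxn3, a presynaptic adhesion molecule, stood at 0.43, 0 and 0.46 CPM at D0 and 268, 254 and 175 CPM at D6 (log2 fold change 9.40 ± 0.66 (SE), adjusted p = 9.99e-06). Cacna1b, the pore of the N-type calcium channel, stood at 0.28, 0.42 and 0.15 CPM at D0 and 124, 139.8 and 99.3 CPM at D6 (log2 fold change 8.65 ± 0.72 (SE), adjusted p = 2.82e-05). Gria1, an AMPA receptor subunit, stood at 0.28, 0 and 0.46 CPM at D0 and 77.1, 78.5 and 35.3 CPM at D6 (log2 fold change 7.80 ± 1.14 (SE), adjusted p = 0.00133). Dlg4, which encodes the scaffold PSD-95, was higher in every D6 library as well (log2 fold change 3.33 ± 0.41 (SE), adjusted p = 0.00053).

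Few genes that fix a transmitter had reads enough for the test. Of 34 genes, only 8 were tested, 1 was higher and 1 lower. With so few genes the counts varied, at 2 higher and 1 lower without D0 replicate 55, 2 and 2 without D6 replicate 39, 3 and 2 by DESeq2, 1 and 2 by limma-voom, and 0 and 3 in the libraries of the next time point, where the median log2 fold change was -1.94 against 3.00. Sst, the neuropeptide somatostatin of inhibitory interneurons, stood at 0, 0.42 and 0 CPM at D0 and 165, 204 and 76.1 CPM at D6, with 2 reads at D0 (1209.5-fold (95% counting interval 334 to 9995) higher). Npy, another neuropeptide, went the opposite way, from 268, 426 and 253 CPM to 0.73, 1.3 and 3.84 CPM (log2 fold change -7.22 ± 0.62 (SE), adjusted p = 3.58e-05). Slc32a1, the vesicular transporter of GABA, stood at 4.84, 0.21 and 0 CPM at D0 and 19.95, 44.1 and 36.9 CPM at D6 and was not called (adjusted p = 0.129). Gad1, Slc17a6 and Chat had too few reads for the test. Slc17a6, the vesicular glutamate transporter of brainstem neurons, was read in 1 D6 library at 7.67 CPM, and Chat, which makes acetylcholine, reached 19.7 CPM in 1 D6 library and under 1 CPM in the other two.

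Receptors for growth factors and guidance cues supplied some of the sharpest differences. Of 54 genes of axon guidance and adhesion, 47 were tested, 18 were higher and 2 were lower (median 2.01). These were 38.3% and 4.26% of those tested, against 7.61% and 5.16% of all tested genes. Of the 47, 8 stood under 2 CPM in every D0 library and 1 in every D6 library, so these values only describe the list. Ngfr, the p75 neurotrophin receptor, stood at 0.14, 0.21 and 0 CPM at D0 and 148, 153 and 111 CPM at D6, with 2 reads at D0 (1208-fold (95% counting interval 334 to 9984) higher). Ntrk2, the receptor for brain-derived neurotrophic factor, had no read at D0 over the counted UTR at chr13:59128354-59133970 and 94.2, 77.2 and 81.7 CPM at D6 (at least 514-fold higher). That value belongs to 1 transcript. Over all distinct UTR intervals of the gene the log2 fold change of Ntrk2 was 2.08, and in the libraries of the next time point it was 5.90 and not called (adjusted p = 0.117). Chl1, a close homologue of the L1 adhesion molecule, had 2 reads at D0 and 37.5, 39.6 and 46.04 CPM at D6 (383-fold (95% counting interval 106 to 3171) higher). Nrp2, a receptor for semaphorins, and Robo3, a guidance receptor at the midline, rose by 7.03 and 6.24 on the log2 scale (adjusted p = 0.000443 and adjusted p = 0.000558). Cxcl12, a chemokine that guides migrating cells, fell from 137, 93.2 and 139.6 CPM to 0.49, 0.65 and 0.16 CPM (log2 fold change -8.21 ± 0.74 (SE), adjusted p = 5.59e-05), or by 4.48 on the log2 scale over all its distinct UTR intervals. The count of 2 lower genes became 1 when any library but D0 replicate 56 was left out.

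**Figure D3:**
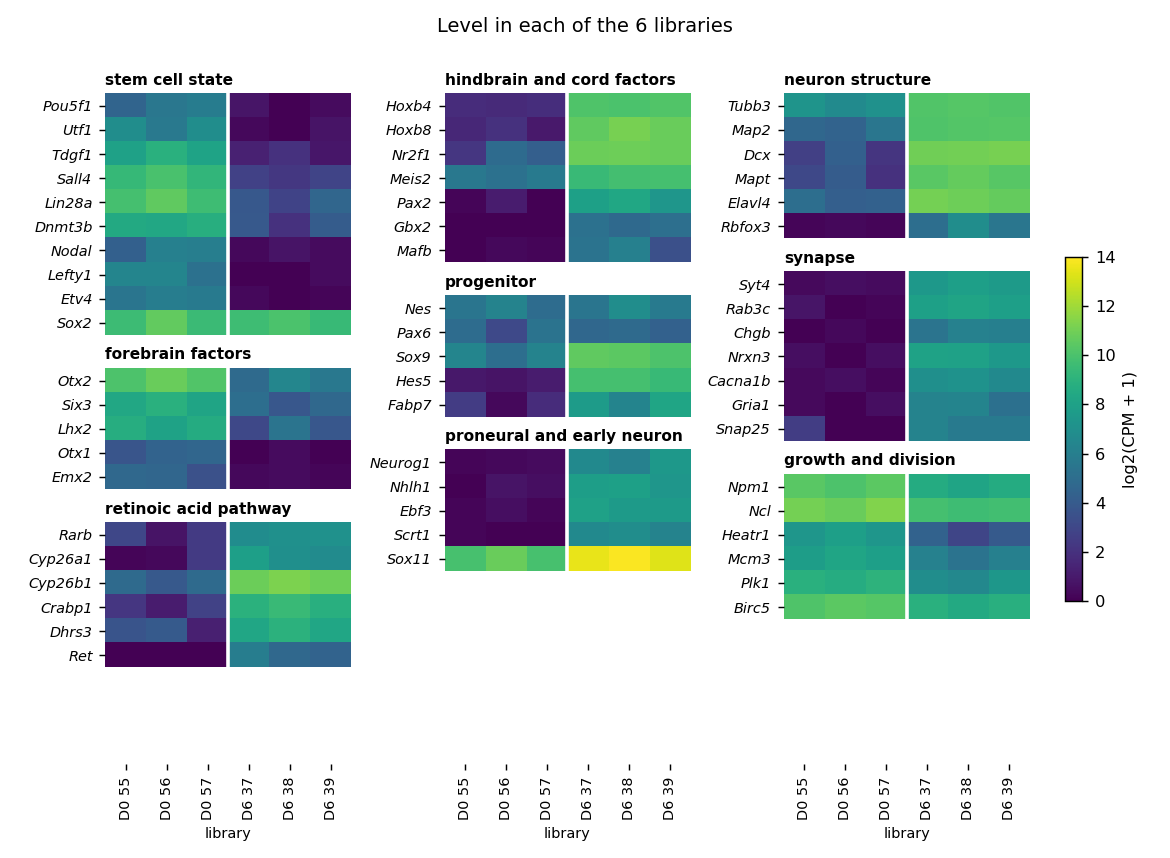
Colour map of the level, log2(CPM + 1), of named genes (1 line each, grouped by role) in the 6 libraries (1 column each, the 3 D0 libraries left of the 3 D6 libraries). The stem cell and forebrain genes shown are brighter at D0 than at D6, retinoic acid, Hox and neuronal genes the reverse, while Sox2, Nes and Pax6 look alike in both states and growth and division genes dim without going dark.

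Part of the cell cycle machinery was lower at D6, and most of its genes were not called. Of 50 DNA replication genes, all 50 were tested, with a median log2 fold change of -0.998. Of these, 11 were lower (22%, against 5.16% of all tested genes) and none was higher. In 23 of the 50 every D0 library lay above every D6 library, against 16.6% of all tested genes. Mcm3, part of the replicative helicase, stood at 219, 302 and 239 CPM at D0 and 69.8, 38.6 and 68.6 CPM at D6 (log2 fold change -2.10 ± 0.36 (SE), adjusted p = 0.00344). Of 53 mitosis genes, again all tested, 8 were lower (15.1%, against 5.16% of all tested genes) and none higher (median -0.66). Plk1, the Polo kinase that drives entry into mitosis, stood at 466, 401 and 530.4 CPM at D0 and 117, 90.8 and 166 CPM at D6 (log2 fold change -1.90 ± 0.31 (SE), adjusted p = 0.0024). Birc5, which encodes survivin of the chromosomal passenger complex, stood at 1119, 1422 and 1249.9 CPM at D0 and 474, 368 and 451 CPM at D6 (log2 fold change -1.55 ± 0.23 (SE), adjusted p = 0.00141). Top2a stood at 867, 853 and 901 CPM at D0 and 549.7, 624 and 596 CPM at D6, lower in every D6 library and not called (adjusted p = 0.116), and Pcna and Ccnb1 overlapped (adjusted p = 0.574 and adjusted p = 0.0968). Every replication and mitosis gene named here still had reads in all D6 libraries.

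The number of called cell cycle genes depended on the libraries. For DNA replication it was 6 without D0 replicate 55 and 2, 7 or 5 without D6 replicate 37, 38 or 39. For mitosis it was 14 without D0 replicate 56 and 3, 5 or 2 without D6 replicate 37, 38 or 39, and DESeq2 called 14. Mcm3, Plk1 and Birc5 were called in every one of these fits.

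Promoters of these genes were searched for the letters TTTCCCGC or TTTGGCGC, which E2F factors bind, and TTTGAA, found in promoters of mitotic genes, on either strand. The E2F letters occurred in 13 of 40 DNA replication promoters (32.5%) against 398 of all 15036 (2.65%), and in 3 of the 9 that belonged to called-lower genes. TTTGAA occurred in 31 of 44 mitosis promoters (70.5%) against 16.5% of all, and in 3 of the 6 of called-lower genes. CCAAT, also common there, occurred in 32 of those 44 (72.7%) against 42.5% of all. The 2 examples below are from genes called in each of those fits, Mcm3 at chr1:20820275-20820304 (minus strand) and Plk1 at chr7:122159453-122159482 (plus strand), 19 and 30 bases after the start, with the letters in capitals. In Mcm3 the match reads on the opposite strand.
Mcm3: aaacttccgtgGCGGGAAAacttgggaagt
Plk1: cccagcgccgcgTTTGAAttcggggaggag

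Regulators of cycle exit moved both ways. Of 26, 23 were tested, 7 were higher and 3 lower (median 1.63). Gadd45g, a growth arrest gene downstream of proneural factors, stood at 0.43, 16.8 and 9.64 CPM at D0 and 462, 560.4 and 381 CPM at D6 (log2 fold change 5.73 ± 0.88 (SE), adjusted p = 0.0018). Cdk5r1, which activates the neuronal kinase Cdk5, stood at 30.8, 62.9 and 87.7 CPM at D0 and 842, 968 and 746 CPM at D6 (log2 fold change 3.82 ± 0.39 (SE), adjusted p = 0.000127). Cdk6 and Ccnd3, a kinase and a cyclin that push cells through G1, stood at 263, 282 and 275 CPM and 476, 801 and 546 CPM at D0 and at 14.1, 54.8 and 34.7 CPM and 89.6, 160.2 and 124 CPM at D6 (log2 fold change -2.99 ± 0.47 (SE), adjusted p = 0.00214, and log2 fold change -2.29 ± 0.32 (SE), adjusted p = 0.00108). The UTR of Ccnd3 overlaps that of Bysl on the other strand. Of the other D-type cyclins, Ccnd2 was lower (-1.18 ± 0.27 (SE) on the log2 scale, adjusted p = 0.0164) and Ccnd1 was higher, at 149.9, 102 and 180.5 CPM at D0 and 338, 302 and 382 CPM at D6 (log2 fold change 1.24 ± 0.30 (SE), adjusted p = 0.0223), but Ccnd2 was not called without D6 replicate 37 or 39 (adjusted p up to 0.104) and Ccnd1 was not called without D0 replicate 55 or D6 replicate 37, 38 or 39 (adjusted p up to 0.089). Cdkn1b, which encodes the inhibitor p27, rose by 1.63 on the log2 scale (adjusted p = 0.0161), but not without D0 replicate 55 or D6 replicate 37 or 39 (adjusted p = 0.0632, 0.0529 and 0.0844). Cdkn1a was not called (adjusted p = 0.459). The count of 7 fell to 4 without D0 replicate 55 or D6 replicate 38 and to 2 without D6 replicate 37 or 39.

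Factors that build ribosomes lay lower at D6. Of 66 ribosome biogenesis genes, 65 were tested and all 65 had a log2 fold change below 0, with a median of -1.56. Of these, 27 were called lower (41.5%, against 5.16% of all tested genes). In 40 of the 65 every D0 library lay above every D6 library, against 16.6% of all tested genes. The summed level went from 13799 to 15013 CPM to 5295 to 5985 CPM. Npm1, a histone chaperone of the nucleolus, stood at 1384, 1093 and 1446 CPM at D0 and 393, 284 and 385 CPM at D6 (log2 fold change -1.88 ± 0.24 (SE), adjusted p = 0.000654). Ncl, which encodes nucleolin, stood at 2149, 1806 and 2636 CPM at D0 and 920.1, 795 and 872 CPM at D6 (log2 fold change -1.35 ± 0.22 (SE), adjusted p = 0.00275). Heatr1, needed for ribosomal RNA transcription and processing, stood at 165, 243 and 159.9 CPM at D0 and 20.2, 6.49 and 14.9 CPM at D6 (log2 fold change -3.76 ± 0.50 (SE), adjusted p = 0.000775), and the helicase gene Ddx21 at 262, 169 and 271 CPM at D0 and 67.4, 16.9 and 37.1 CPM at D6 (log2 fold change -2.53 ± 0.50 (SE), adjusted p = 0.0076). Heatr1 and Ddx21 were not called in the libraries of the next time point (adjusted p = 0.109 and 0.0716). Without D6 replicate 37 the count was 16.

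Ribosomal protein genes themselves moved less. Of 61 tested of 79, 2 were lower (3.28%, under the 5.16% of all tested genes) and none was higher, with a median log2 fold change of -0.43, and the summed level was 29346 to 44003 CPM at D0 and 24537 to 28552 CPM at D6. The genes called were Rpl14 (log2 fold change -1.18 ± 0.28 (SE), adjusted p = 0.0176) and Rpl8 (log2 fold change -1.03 ± 0.28 (SE), adjusted p = 0.0369). No call remained without D6 replicate 37 or 39, whereas DESeq2 called 9, limma-voom 6, the scaling by total reads 6 and the libraries of the next time point 12. Reads that map to several places were not counted in these libraries, and ribosomal protein genes have many processed copies in the mouse genome.

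**Figure D4:**
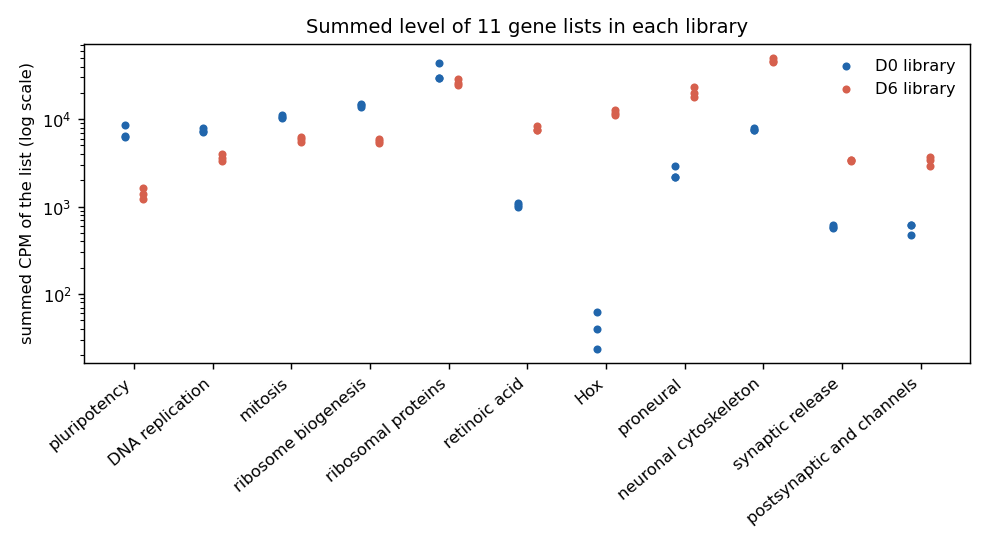
Summed CPM of 11 gene lists (vertical axis, log scale), 1 point per library, D0 in blue and D6 in orange. D6 sums lie above all D0 sums for the retinoic acid, Hox, proneural, cytoskeleton, release and postsynaptic lists and below them for the pluripotency, replication, mitosis, biogenesis and ribosomal protein lists, the last by the narrowest margin.

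Metabolic genes were called in both directions. Of 23 glycolysis genes tested, 5 were lower (21.7%, against 5.16% of all tested genes) and 1 was higher (median -1.04). Slc2a3, a high affinity glucose transporter, stood at 352, 233 and 412 CPM at D0 and 18.98, 2.92 and 2.4 CPM at D6 (log2 fold change -5.36 ± 0.76 (SE), adjusted p = 0.00114). Slc2a1, the widespread glucose transporter, stood at 172, 156 and 173 CPM at D0 and 48.9, 14.6 and 32.1 CPM at D6 (log2 fold change -2.39 ± 0.47 (SE), adjusted p = 0.00807), and Aldoa, the aldolase of muscle and of dividing cells, at 617, 1266 and 769 CPM at D0 and 257, 268 and 163 CPM at D6 (log2 fold change -1.95 ± 0.33 (SE), adjusted p = 0.00343). Slc16a3, which exports lactate, fell by 2.56 on the log2 scale (adjusted p = 0.00502). The gene called higher, the neuronal enolase Eno2, stood at 2.56, 0.21 and 4.9 CPM at D0 and 71.1, 90.2 and 58.03 CPM at D6 (log2 fold change 4.81 ± 1.00 (SE), adjusted p = 0.00991), but was not called without D6 replicate 38 (adjusted p = 0.0536) or in the libraries of the next time point. Of 27 cholesterol synthesis genes tested, 4 were higher (14.8%, against 7.61% of all tested genes) and 2 lower (7.41%, against 5.16%), with a median of 0.80. Hmgcs1, at the entry of the pathway, stood at 256, 337 and 236 CPM at D0 and 1630.4, 1278 and 1242 CPM at D6 (log2 fold change 2.32 ± 0.25 (SE), adjusted p = 0.000187) and Msmo1, a sterol demethylase further down, at 86.6, 83.9 and 90.5 CPM at D0 and 295, 204 and 337 CPM at D6 (log2 fold change 1.68 ± 0.31 (SE), adjusted p = 0.00552). Lbr, a late reductase that is also a nuclear envelope protein, went from 315, 298 and 289 CPM to 59.9, 114 and 127 CPM (log2 fold change -1.58 ± 0.34 (SE), adjusted p = 0.0122). The 4 higher became 2 when any library but D0 replicate 56 was left out and 7 without that one, and DESeq2 and limma-voom each called 9.

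Markers of other cell types that such cultures can hold were examined. Of 24 glial genes, 11 were tested, 3 were higher and 2 lower, and the summed level was 320 to 621 CPM at D0 and 856 to 993 CPM at D6. The 3 and 2 were 27.3% and 18.2% of the 11, against 7.61% and 5.16% of all tested genes. The genes called higher were the glutamate transporter Slc1a2 (0.43, 0.21 and 0 CPM at D0 and 104, 104 and 125 CPM at D6) and the transcription factors Nfia (4.37 ± 0.79 (SE) on the log2 scale) and Nfib (2.82 ± 0.43 (SE)). Slc1a2 was not called in the libraries of the next time point. The genes called lower were Gja1, the gap junction protein connexin 43, at 303, 58.2 and 159.9 CPM at D0 and 27.01, 17.2 and 8.31 CPM at D6 (log2 fold change -3.32 ± 0.66 (SE), adjusted p = 0.00832), and Apoe, the lipid carrier apolipoprotein E, at 122, 149.7 and 65.8 CPM at D0 and 35.5, 11.7 and 15.7 CPM at D6 (log2 fold change -2.42 ± 0.59 (SE), adjusted p = 0.0223). Neither was called without D0 replicate 55 or in the libraries of the next time point, Gja1 was not called by limma-voom, and Apoe was not called without D6 replicate 38 or 39 (adjusted p up to 0.192 for Gja1 and 0.419 for Apoe). The defining markers of mature glia were near or at 0, since Aqp4, Olig2 and Sox10 had no read in any library and Gfap was read only in 1 D0 library, at 0.85 CPM. Of 37 mesenchymal genes, 21 were tested and 6 were lower, none higher (median -1.77), with sums of 2444 to 3625 CPM at D0 and 751 to 1068 CPM at D6. The 6 were 28.6% of the 21, against 5.16% of all tested genes. Acta2, smooth muscle actin, stood at 104, 99.8 and 81.4 CPM at D0 and 0.73, 8.43 and 1.28 CPM at D6 (log2 fold change -4.81 ± 0.94 (SE), adjusted p = 0.00724). The count of 6 fell to 3 without D0 replicate 55 and to 2 without D6 replicate 37. Of 21 endothelial and blood genes, 15 had no read in any library, Pecam1 and Ptprc among them.

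**Figure D5:**
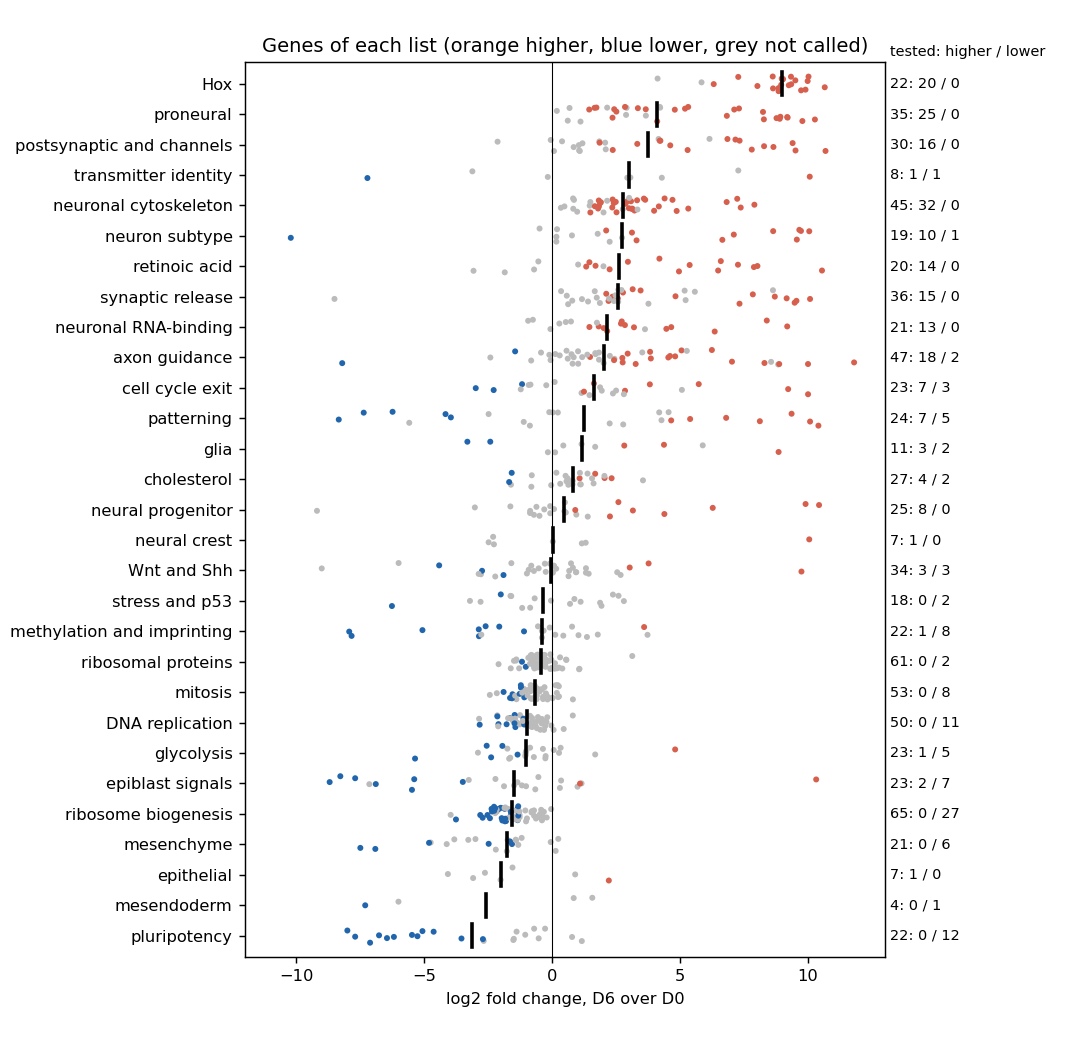
Log2 fold change of D6 over D0 (horizontal axis) of every tested gene in 29 lists (1 line each, ordered by their median, the black bar), with called-higher genes in orange, called-lower in blue and others in grey. The Hox median of 8.98 is at the top and the pluripotency median of -3.13 at the bottom, and the numbers at the right are the genes tested, called higher and called lower.

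Besides the lists, genes were followed from near 0 to a clear level and back. A gene counted as gained where it was at most 1 CPM in every D0 library and at least 10 CPM in every D6 library, and as lost in the reverse case. Gained were 123 of 18854 genes (0.652%) and lost were 81 (0.43%), of which 117 and 78 were also called by the test. Those calls add no support, since the limits were set on the same 6 libraries and nearly fixed the outcome. Without D0 replicate 56 the shares were 0.796% and 0.679%, without D0 replicate 55 they were 1.18% and 0.557%, and without D6 replicate 39 they were 0.928% and 0.737%. Gained genes came from several of the lists, with 10 Hox, 8 proneural, 7 release and 6 postsynaptic and channel genes. Long steps were seen for Pdzrn4, at 0, 0.42 and 0.31 CPM at D0 and 312, 390.1 and 312 CPM at D6 (log2 fold change 10.42 ± 0.64 (SE), adjusted p = 3.07e-06), and for Tmem178, with no read at D0 and 108, 89.2 and 71.9 CPM at D6 (at least 547-fold higher, adjusted p = 0.000242). In the libraries of the next time point the log2 fold change of Tmem178 was only 3.69 (adjusted p = 0.02). Anks1b, a scaffold of the postsynaptic density, also had no read at D0 and 27.7, 78.8 and 67.1 CPM at D6 (at least 353-fold higher). Wnt7b, a ligand of the developing nervous system, had 2 reads at D0 and 107, 126 and 104 CPM at D6 (1005-fold (95% counting interval 278 to 8307) higher), and was not called in the libraries of the next time point.

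Among the lost genes, Tpm1, a tropomyosin that stabilises actin filaments, stood at 282, 236 and 373 CPM at D0 and 0.73, 0.97 and 0.8 CPM at D6 over its counted UTR at chr9:67022593-67023358 (log2 fold change -8.45 ± 0.47 (SE), adjusted p = 1.78e-06). Summed over all distinct UTR intervals of Tpm1 the log2 fold change was -5.52. Pla2g7, a secreted phospholipase, stood at 189, 191 and 126 CPM at D0 and 0, 0.97 and 0.48 CPM at D6 (log2 fold change -8.46 ± 0.77 (SE), adjusted p = 5.82e-05) and the amino acid transporter gene Slc38a4 at 128, 153 and 106 CPM at D0 and 0.24, 0.97 and 0.16 CPM at D6 (log2 fold change -8.25 ± 0.78 (SE), adjusted p = 7.44e-05). Prex2, a guanine exchange factor, had 24.3, 44.6 and 38.4 CPM at D0 and no read at D6 (at least 160.4-fold higher at D0, adjusted p = 0.00599), while in the libraries of the next time point it was not called.

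Among the 5 genes with the highest mean CPM at D0 were Actb, Tubb5, Wdr89 and Hsp90ab1. Of these 4 only Hsp90ab1, a heat shock protein 90 gene, was called, at 5424, 4460.1 and 5726 CPM at D0 and 2964, 2999 and 3273 CPM at D6 (log2 fold change -0.76 ± 0.19 (SE), adjusted p = 0.0252), and it kept the call only without D0 replicate 56 among the fits that left out 1 library (adjusted p up to 0.137). The 5 highest at D6 were Sox11, Tubb2b, Tubb5, Basp1 and Actb. Tubb2b, a β-tubulin of developing neurons, stood at 1039, 1598 and 1289 CPM at D0 and 8266, 9768 and 12100.1 CPM at D6 (log2 fold change 2.94 ± 0.24 (SE), adjusted p = 2.82e-05), and Basp1, a growth cone protein, at 1281, 1318 and 1302 CPM at D0 and 7760.1, 7079 and 7005 CPM at D6 (log2 fold change 2.49 ± 0.19 (SE), adjusted p = 1.66e-05). Actb and Tubb5 overlapped between states (adjusted p = 0.527 and adjusted p = 0.828).

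Separate libraries of the same states were available at the next time point, labelled 1, from cells given 4sU at concentrations that differed between D0 and D6. Of the 779 genes higher at D6, 732 could be tested there, 730 had the same direction and 514 were called (66.0% of the 779, and 63.9% of the 805 called higher there). Of the 528 lower genes, 524 could be tested, 519 had the same direction and 319 were called (60.4% of the 528, and 36.7% of the 869 called lower there). No gene was called in opposite directions. Some genes near 0 in 1 state changed much less there, with log2 fold changes of 4.72 for Hoxa7, 5.02 for Cacna1b, 4.44 for Slc1a2, 5.69 for Wnt7b, 5.89 for Bmp7 and -1.92 for Prex2. Several lists also had more genes called lower there, namely 12 epiblast signals, 10 mesenchymal, 9 glycolysis, 8 patterning and 5 cycle exit genes.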

How the data were processed

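The 6 libraries were made from total RNA with a 3′-end kit that keeps strand. Per the file headers, the authors counted reads with SLAMdunk 0.3.3 over 3′ UTR intervals named by RefSeq transcript, and the submitters' processing notes name the genome build mm10. The deposited values are raw read counts per interval, and no read mapping to several places was counted.

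Counts were summed over the intervals of each mRNA transcript. Of 28190 transcripts, 28064 matched a RefSeq gene, and the 126 others held 0.158% of the reads. The transcript with the most reads over the 6 libraries gave the gene's value, and 5154 of the 18854 genes had at least 2 transcripts. Each counted mRNA end gives reads from 1 place, so CPM has no length term, but mappability differs between genes. edgeR 4.0.16 in R 4.3.3 was used with TMM scaling, its expression filter and the quasi-likelihood test of D6 against D0, with n = 3 libraries each and Benjamini-Hochberg adjustment. Each SE was computed from that test, as the absolute log2 fold change divided by the square root of its F statistic, and was not fitted directly. All replicates differed by more than sampling noise. The study's figure legends speak of biological replicates, while neither the methods of this assay nor the labels say that they came from separate cultures, so p-values measure the spread between these libraries. The script was tested on simulated data.

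For a gene with no read in one state, the fold is a lower bound against 3 reads over the 3 libraries of that state (0.164 CPM at D0, 0.223 CPM at D6). With 1 to 3 reads, it is a ratio of summed counts with a 95% exact interval. Both cover counting error only.

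The genes and lists were chosen with earlier results of these data known. Genes were named by rule: the 15 largest called changes in each direction with at least 20 CPM in every library of the higher state, up to 4 called members per list and direction together with members that define a state or cell type, and the 5 highest means per state. Not every gene so selected is printed, and some are not reported here. Alternatives were RLE and total-read scaling, 2 other filters, DESeq2 1.42.0, limma-voom (limma 3.58.1), reads summed over the 30432 distinct intervals, the libraries of the next time point and leaving out each library. Columns of conversion rates were used only for the check of labelling, and the remaining libraries of the series were not analysed here.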

Additional observations from a re-analysis of the deposited data

How the results depend on the processing

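The counts of genes called higher stayed between 715 and 1103 under the other scalings, filters, tests and libraries. DESeq2 called 883 genes lower, 813 of them at least 2-fold, and the libraries of the next time point called 869 and 778. Of all genes, 0.329% were gained from near 0 and 0.674% lost in those libraries, and 0.26% were lost with limits of 2 and 20 CPM. Leaving out 1 library gave 412 to 850 genes higher, 291 to 528 lower, 412 to 834 at least 2-fold higher, 291 to 491 at least 2-fold lower, 0.796 to 1.18% of genes gained and 0.557 to 0.737% lost. Fewer libraries give the test less information, and relaxing the CPM limits to fewer libraries lets more genes meet them. Scaling by total reads moved the median log2 fold change of all genes by -0.083.

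Of 233 named genes with a fit, 5 changed direction in some fit and none of those was called. On the log2 scale, with 1 library left out, Actb ranged from -0.64 to 0.0020, Nes from -0.083 to 0.95, Pax6 from -0.56 to 0.33, Sox2 from -0.51 to 0.16 and Tubb5 from -0.062 to 0.34. Actb was at 0.17 in the libraries of the next time point and 0.0020 without D0 replicate 56. Pax6 was at 0.13 in the libraries of the next time point, 0.33 without D0 replicate 57 and 0.011 without D6 replicate 39. Tubb5 was at -0.062 without D0 replicate 55 and -0.023 without D6 replicate 38, Sox2 at 0.16 without D0 replicate 56 and Nes at -0.083 without D6 replicate 38. The cause was not tested. Some call was lost for 75 of the genes. Of genes named as not called, DESeq2 called Ccnb1, Hoxc9, Hoxd8, Igf2, Neurog2, Slc32a1, Syp and Top2a (adjusted p = 0.00066 to 0.0424), and the libraries of the next time point called Rarg, Sox3 and Top2a (adjusted p = 0.0403, 0.00366 and 0.0199). No paired analysis was possible because the library numbers of D0 and D6 (55 to 57 and 37 to 39) are not shared. Depth limits genes near 0: 6303 genes had no read in the 6 libraries, and 2549 genes had an unadjusted p under 0.05.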

Other observations

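Some imprinted genes and DNA methylation genes were lower at D6. Of 26, 22 were tested, 8 were lower and 1 was higher (median log2 fold change -0.40). The 8 and 1 were 36.4% and 4.55% of those tested, against 5.16% and 7.61% of all tested genes. The number higher varied, at 5 by limma-voom, 4 by DESeq2, 3 without D0 replicate 56 and 2 without D0 replicate 57, while 6 to 9 were lower in these fits and those without any other library. Phlda2, an imprinted gene that restrains placental growth, stood at 100.4, 92.4 and 73.9 CPM at D0 and 0.24, 0 and 0.64 CPM at D6 (log2 fold change -7.93 ± 0.94 (SE), adjusted p = 0.000381). Plagl1, an imprinted zinc finger factor, stood at 643, 355 and 544 CPM at D0 and 67.2, 79.1 and 64.9 CPM at D6 (log2 fold change -2.87 ± 0.31 (SE), adjusted p = 0.0002), and Mest at 1109.5, 574 and 1161 CPM at D0 and 150.1, 82.7 and 158 CPM at D6 (log2 fold change -2.86 ± 0.36 (SE), adjusted p = 0.00059), where the UTR of Mest overlaps that of Copg2 on the other strand. In all 3 the states did not overlap, and each was called in every fit, although Phlda2 fell by only 3.64 on the log2 scale in the libraries of the next time point (adjusted p = 0.0329). There 5 genes of the list were called lower and 2 higher. The gene called higher was Nnat, the imprinted neuronatin of developing brain, at 130.4, 357 and 99.8 CPM at D0 and 2248, 2748 and 2089 CPM at D6 (log2 fold change 3.59 ± 0.45 (SE), adjusted p = 0.000567). Igf2, an imprinted growth factor, lay higher in every D6 library and was not called (adjusted p = 0.0519).

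Wnt and Hedgehog genes were called at shares near those of all tested genes. Of 34 tested of 47, 3 were higher (8.82%, against 7.61% of all tested genes) and 3 lower (8.82%, against 5.16%), with a median of -0.03. DESeq2 called 5 lower and the libraries of the next time point 8. Fzd3, a Wnt receptor used in axon guidance, stood at 82.3, 74.1 and 38.4 CPM at D0 and 488, 572 and 532 CPM at D6 (log2 fold change 3.03 ± 0.34 (SE), adjusted p = 0.000247). Tcf7l1, the repressor that acts on Wnt targets in stem cells, stood at 708, 789 and 667 CPM at D0 and 113, 140.1 and 70.8 CPM at D6 (log2 fold change -2.74 ± 0.31 (SE), adjusted p = 0.000246). Each of these was called without any 1 library. Of 18 stress and p53 genes tested, 2 were lower (11.1%, against 5.16% of all tested genes) and none higher. The number lower was 1 when any library but D6 replicate 39 was left out and 4 by DESeq2. In the libraries of the next time point, by limma-voom and without D0 replicate 56 or 57, 1 gene was higher. Asns, the asparagine synthetase of the amino acid response, stood at 175, 239.7 and 171 CPM at D0 and 46.5, 39.2 and 59.5 CPM at D6 (log2 fold change -2.01 ± 0.36 (SE), adjusted p = 0.00451), and was not called in the libraries of the next time point (adjusted p = 0.0571). The stress factors Atf4 and Ddit3 were not called (adjusted p = 0.096 and adjusted p = 0.195), although DESeq2 called Atf4 lower (adjusted p = 0.0407) and Ddit3 was higher without D0 replicate 57 (adjusted p = 0.048) and in the libraries of the next time point (adjusted p = 0.0111).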
